A study of Pan troglodytes with 38 samples.

Results

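The renin-angiotensin-aldosterone genes described here are AGT, CMA1, ACE, ENPEP, LNPEP, AGTR1 and NR3C2, 7 of the 31373 genes in the deposited table of counts per annotated chimpanzee gene, of which 18040 could be given a symbol. They were chosen by symbol, for their place in the pathway, and each symbol matched 1 gene. RNA-seq libraries from post-mortem heart tissue of 38 chimpanzees, 1 library per animal, were examined, and the labels put all of them in 1 group without a treatment. The study's sample table divides them into an earlier RNA extraction (17 animals, 10 females and 7 males) and a later one (21 animals, 12 females and 9 males), gives their RNA integrity number, and names 5 sources of the animals, of which Yerkes (21) and SNPRC (13) gave most. Polyadenylated RNA was sequenced, some of the animals are close relatives according to the study's methods, and the labels do not give the chamber of the heart or the animals' health. The study's sample table notes 7 animals as positive for hepatitis B or C virus and 1 as exposed to HIV, all 8 in the later extraction, and marks the 17 libraries of the earlier extraction as sequenced again from earlier work, so these differences cannot be wholly told apart from the extraction. Levels are counts per 1000000 (CPM), with the total on exons orthologous between human and chimpanzee as library size. These totals lay between 14408012 and 81603350 (median 41226040), and they were spread more widely in the later extraction (14408012 to 81603350) than in the earlier one (31112482 to 54380181).

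The renin-angiotensin-aldosterone system regulates blood pressure, salt balance and growth of the heart muscle. Angiotensinogen is cut to angiotensin I, which angiotensin-converting enzyme or, in heart tissue, mast cell chymase turns into angiotensin II. Angiotensin II acts through its type 1 receptor and drives the adrenal cortex to make aldosterone, whose receptor is a transcription factor. Aminopeptidases shorten angiotensin II further.

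Several libraries stood apart before any gene of the pathway was considered. The share of gene counts on the 13 mitochondrial protein genes had a median of 30.4%, was at most 34.98% in the earlier extraction, and reached 60.1% in the later one. The 7 libraries with the highest shares (537, 558, 529, 4X0339, Little_R, 495 and 4X0354) were all of the later extraction and had at least 42.99%, and no other library exceeded 40.04%. Little_R and 537 had the lowest median correlations with the other libraries, 0.749 and 0.819. Markers of cardiomyocytes were abundant, with a median of 32999 CPM for MYH7, the slow myosin heavy chain. One library, 549, had the lowest sum of ventricular markers (1029 CPM, against a median of 57087) and the highest sum of atrial markers (47164 CPM, against a median of 553). Atrial sums were also high in 4X0354 (16545 CPM) and 4x0519 (13110 CPM). Little_R had the lowest sum of cardiomyocyte markers (11980 CPM, median 86166) and the highest sum of fibroblast markers (11674 CPM, median 1970). The relations between genes and the differences between extractions are also given without the 7 libraries where these bore on them most.

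**Figure D1:**
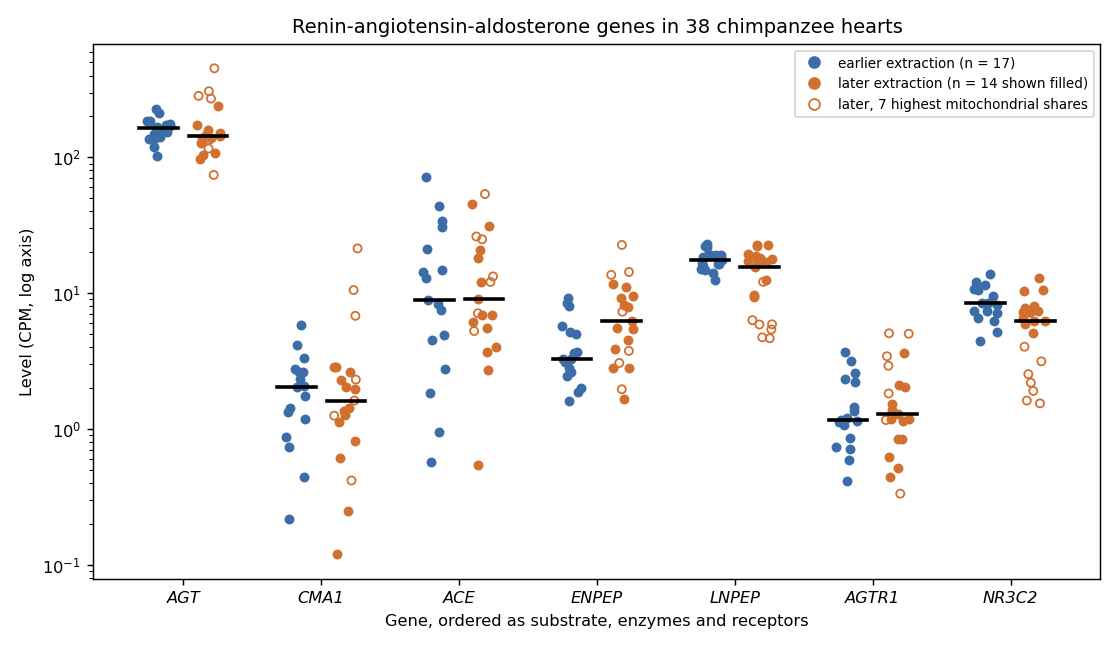
Each point is 1 heart, its height the level in CPM on a log axis, for the 7 genes, with the earlier extraction in blue and the later one in orange. Open points are the 7 libraries with the highest mitochondrial shares and black lines are medians. ACE and CMA1 spread over more than 100-fold, whereas LNPEP stayed within 5-fold, and the 7 open points are the 7 lowest of NR3C2.

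AGT, the angiotensinogen gene and thus the substrate of the pathway, was transcribed in every heart. Its level was 74.2 CPM in the lowest heart (4X0339), 149 CPM in the median heart and 453 CPM in the highest (495). The middle of the distribution was narrow, with quartiles at 137 and 177 CPM. The highest values came from 495, Little_R (307 CPM) and 537 (284 CPM), all among the libraries with high mitochondrial shares. The lowest heart, 4X0339, was one of these 7 libraries as well, which together had a median of 271 CPM. ATP6AP2, an accessory protein of the vacuolar proton pump that is on the list of angiotensin formation and breakdown, was present in all hearts at 45.3 to 123 CPM.

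Levels can be compared between genes only per length, and orthologous exons could be assigned to AGT, CMA1, ACE, AGTR1 and ENPEP, but not to NR3C2 and LNPEP. For these 2 the best and second-best exons followed the gene too closely alike to choose (r 0.925 and 0.923 for NR3C2, 0.972 and 0.939 for LNPEP). Per kilobase of orthologous exon, with the same library size (RPKM), AGT had a median of 86.4 and exceeded the next gene, CMA1, in 38 of 38 hearts. The other medians were 2.18 RPKM for CMA1, 1.16 for ACE, 0.978 for AGTR1 and 0.686 for ENPEP. These 4 genes overlapped. CMA1 exceeded ACE in 25 of 38 hearts, ACE exceeded AGTR1 in 21, and AGTR1 exceeded ENPEP in 25, so their order differed from heart to heart. For AGTR1 the orthologous exons gathered 2.55 times as many counts as the annotated gene and for AGT 1.25 times, whereas the ratio was at most 1.08 for the other 3, so the level of AGTR1 depends on which exons are counted. On Pan_tro_3.0, the orthologous exons of AGT lie within chr1:209706421-209718181 (minus strand, 5 exon blocks), those of CMA1 within chr14:8193386-8195539 (minus strand, 4), those of ACE within chr17:62939906-62961232 (plus strand, 26), those of AGTR1 within chr3:152195262-152240201 (plus strand, 7) and those of ENPEP within chr4:113352067-113570350 (plus strand, 24).

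**Figure D2:**
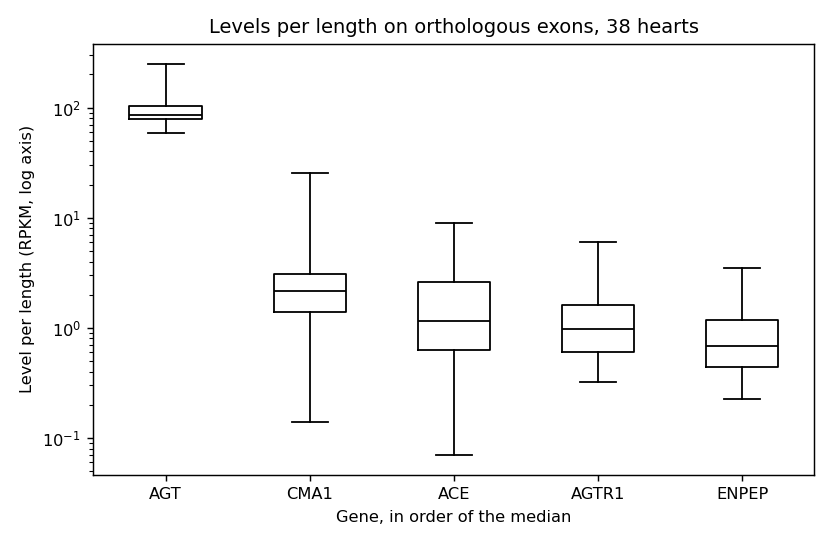
The boxes show the median and quartiles over 38 hearts and the whiskers the lowest and highest heart, in RPKM on a log axis, for the 5 genes with assigned orthologous exons. AGT lies wholly above the rest, whose boxes overlap.

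CMA1, which encodes mast cell chymase, was low and very uneven between hearts. It ranged from 0.119 CPM in 554, where it rests on 5 counts (95% exact Poisson interval 0.0385 to 0.277 CPM), over a median of 1.85 CPM to 21.3 CPM in 537. Only 3 hearts, 537, 529 (10.53 CPM) and 495 (6.80 CPM), reached 6 CPM, and 9 were under 1 CPM. The level of CMA1 followed the markers of mast cells. Against the mean level of the mast cell markers TPSB2, KIT, GATA2 and SLC18A2, with log2 CPM centred within extraction batch, Pearson's r was 0.83 and Spearman's rho 0.73 over 38 hearts. Both had p = 1e-05, the smallest that 100000 two-sided permutations within batch can give, and an adjusted p of 0.00063 over 126 relations. The relation was 0.74 without 529 and 537, the 2 hearts farthest from the median, 0.60 within the earlier extraction, 0.91 within the later one and 0.67 without the 7 libraries with high mitochondrial shares. In bulk tissue, fewer cells of a type and less RNA per cell cannot be told apart.

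The single markers behind this relation were unequal. TPSB2, a mast cell tryptase (0.332 to 29.3 CPM, median 3.06), had the highest rho with CMA1 of all 12605 genes ranked (rho 0.79, r 0.87). It also ranked first without the 7 libraries with high mitochondrial shares (rho 0.79). The mast cell carboxypeptidase gene CPA3 had r = 0.85 and HDC, which makes histamine, had r = 0.82, although both had medians under 1 CPM and were therefore not in the list's mean. GATA2 (r 0.31) and SLC18A2 (r -0.10), the 2 most abundant genes of the list with medians of 25.2 and 14.96 CPM, moved little with CMA1. KIT had r = 0.64. The defining markers MS4A2 and FCER1A were low, with medians of 0.178 and 0.146 CPM and highest values of 3.56 and 1.41 CPM, and had r = 0.59 and 0.57 with CMA1. A second tryptase gene, TPSAB1, was not found by symbol, so reads of close tryptase copies may be split. Among the genes ranked, which had a median of at least 1 CPM, the next were BOC (rho 0.75), SMOC2 (0.74), ADAMTSL3 (0.72) and POLR2A (0.71). HDC (rho 0.755) and CPA3 (rho 0.746) were left out of the ranking by that limit, and both had a higher rho than SMOC2. Of the genes ranked, 6 exceeded 0.7, against 10 without the 7 libraries and 2 with TMM-scaled library sizes. Of the first 5 genes, 3 were also among the first 5 without the 7 libraries.

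CMA1 also moved with fibroblast markers (r 0.69, rho 0.64, adjusted p 0.00084 and 0.0019 by permutation) and with markers of nerve and Schwann cells (r 0.54, rho 0.53, adjusted p 0.0064 and 0.013). The first relation was 0.54 without the 2 farthest hearts, 0.59 within the earlier and 0.72 within the later extraction, and 0.59 without the 7 libraries. The second was 0.43 without the 2 farthest hearts, 0.33 and 0.66 within the extractions, and failed the threshold without the 7 libraries (r 0.31, adjusted p 0.49 by permutation). Markers of pericytes (r 0.47, adjusted p 0.032 by permutation), smooth muscle (r 0.42, adjusted p 0.044) and T and NK cells (r 0.42, adjusted p 0.044) passed with CMA1 by r alone. Their adjusted p of rho lay between 0.12 and 0.15. Within the earlier extraction these r were -0.09, 0.09 and 0.38. CTSG, cathepsin G, another protease that can form angiotensin II, was at or below 12.3 CPM with a median of 0.329 CPM.

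ACE, the angiotensin-converting enzyme of endothelial surfaces, varied most at a given mean level. It was lowest in the females 724 (0.541 CPM, 24 counts), 570 (0.566 CPM) and 88A020 (0.940 CPM), had a median of 9.03 CPM, and was highest in the males 549 (71.9 CPM), 529 (53.7 CPM), 295 (45.002 CPM) and 317 (43.7 CPM). The highest heart was 133 times the lowest, and the quartiles, 5.01 and 20.96 CPM, were 4.19 times apart. Both extractions covered this range, with medians of 8.96 CPM (earlier) and 9.09 CPM (later).

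The spread between hearts was measured as dispersion, the natural logarithm of negative binomial overdispersion minus its trend on mean level, so that 0 is typical for a gene of that level. ACE had a dispersion of 1.90 (SE 0.203 from animals drawn with replacement, 38 hearts) and ranked 387 of 13121 genes, above 97.1% of them. It was 2.67 within the earlier extraction, 1.61 within the later one, 2.51 without the 7 libraries with high mitochondrial shares and 1.77 without 549, the heart with the highest atrial sum. Each value for fewer hearts was taken against a trend fitted to those hearts. Over 38 hearts, the other members lay inside the range of most genes (5th to 95th percentile, -1.36 to 1.61). CMA1 had 0.60 (SE 0.421), ENPEP 0.47 (SE 0.243), AGT 0.27 (SE 0.326), LNPEP 0.14 (SE 0.265) and NR3C2 0.06 (SE 0.250). Single hearts decided part of these values. CMA1, which entered the filter only through 537, 529 and 495, fell to 0.16 without 537, and with a filter of 1 CPM in at least 19 hearts it was 1.19. ENPEP was 0.28 without 529, AGT -0.05 without 495, LNPEP 0.07 without 537, and NR3C2 between -0.05 (without 4X0339) and 0.14 (without Little_R). On the annotated gene, AGTR1 never reached the 6 CPM that the trend asked of at least 1 heart. With the lower filter it had 0.29 (SE 0.199). On orthologous exons, which gathered 2.55 times as many counts, it entered the first filter with a dispersion of 0.45. All 6 values under the first filter were above 0, as were 44.4% of all genes, but within the earlier extraction only 2 of 5 were (ACE and ENPEP), and LNPEP was at -1.13 there.

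**Figure D3:**
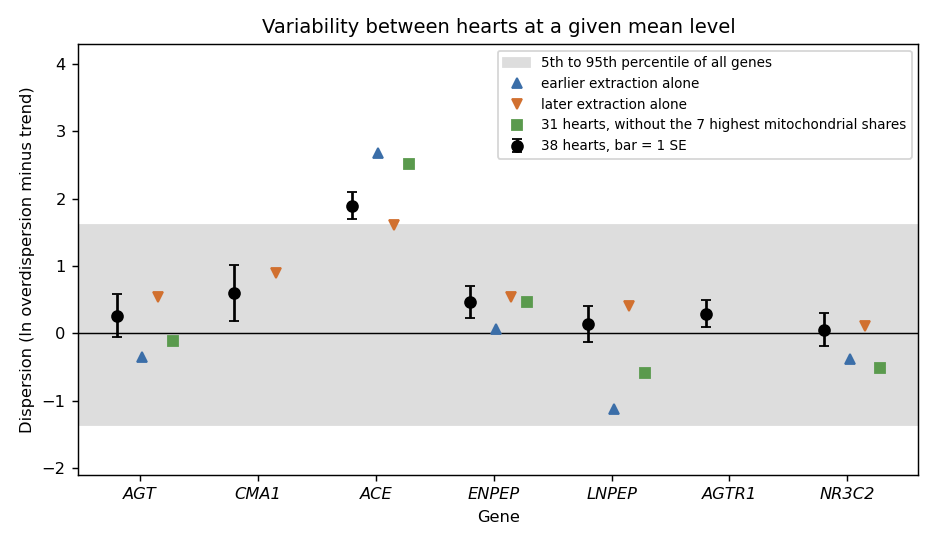
The vertical axis is dispersion, where 0 is the trend over all genes, and black points are the values over 38 hearts with 1 SE. The grey band holds the middle 90% of genes over 38 hearts and does not apply to the other symbols, which come from separate fits. Triangles give each extraction alone and squares the hearts without the 7 highest mitochondrial shares, where the gene reached 6 CPM in one of those hearts, and the AGTR1 point uses the filter of 1 CPM in at least 19 hearts. ACE is the only one of the 7 above the band over all hearts, and LNPEP (-1.13 in the earlier extraction) changes most between the extractions among the 5 genes with both triangles.

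ACE went up and down with mast cell and fibroblast markers and not detectably with endothelial ones. With the mast cell list r was 0.62 and rho 0.63 (adjusted p 0.00095 and 0.0019 by permutation). It was 0.58 without the 2 farthest hearts, 0.75 within the earlier and 0.58 within the later extraction, and 0.74 without the 7 libraries. Here KIT, the receptor for stem cell factor, had the highest r of the single markers (0.70), and TPSB2 had 0.62. The other markers in the list's mean had r = 0.01 (GATA2) and -0.24 (SLC18A2), and MS4A2 had 0.03. With fibroblast markers r was 0.53 and rho 0.54 (adjusted p 0.0047 and 0.012), 0.47 without the 2 farthest hearts, and 0.72 and 0.44 within the extractions. With endothelial markers r was 0.17 and rho 0.14 (adjusted p 0.43 and 0.57 by permutation), and among its markers CDH5 had r = 0.41 and VWF -0.03. ACE and CMA1, which both make angiotensin II, had r = 0.45 and rho = 0.51 (adjusted p 0.020 and 0.019), 0.54 without the 2 farthest hearts and 0.47 and 0.46 within the extractions. Without the 7 libraries this r was 0.50 and no longer passed (adjusted p 0.11 by permutation).

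The genes most like ACE over 38 hearts were ANGPTL7, a secreted angiopoietin-like protein (rho 0.82), COL15A1, a basement membrane collagen (0.79), FNDC1 (0.78), FSCN1, which bundles actin (0.76), and FMO1 (0.73). Without the 7 libraries, ANGPTL7 was again first with rho 0.90, and 2 of the 5, ANGPTL7 and COL15A1 (0.80), were among the first 5. Of the 12605 genes, 14 had a rho over 0.7 with ACE, and 36 without the 7 libraries. Atrial markers had r = 0.44 (adjusted p 0.032) but rho = 0.33 (adjusted p 0.15 by permutation), and r fell to 0.32 without 549 and 4X0354, the 2 farthest hearts. The erythrocyte marker HBB likewise passed by r alone (r 0.42, adjusted p 0.045, and rho 0.38, adjusted p 0.11, by permutation). Its r was 0.39 within the earlier and 0.48 within the later extraction.

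ACE had medians of 6.99 CPM in 22 females (0.541 to 31.03 CPM) and 17.5 CPM in 16 males (1.84 to 71.9 CPM). The sexes overlapped over most of the range. The males' median was higher in the earlier extraction (14.4 against 7.92 CPM) and in the later one (20.6 against 6.52 CPM). In edgeR's quasi-likelihood test with extraction batch as covariate, the difference was 1.29 on the log2 scale (SE 0.44, unadjusted p 0.0059), and it did not pass the Benjamini-Hochberg adjustment over 16000 genes (adjusted p 0.32). Its size was between 1.24 and 1.45 under 8 alternatives, with adjusted p between 0.15 and 0.61. The median log2 difference between males and females was 2.14 over 9 atrial markers, of which 1 passed the test, 0.88 over 10 fibroblast markers, of which 0 passed, and 0.78 over 8 mast cell markers, of which 0 passed. Their part in the difference of ACE was not tested.

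No member passed the threshold between the sexes, where 0.231% of all genes did (37 of 16000, 0.162% higher and 0.0688% lower in males, and 102 with DESeq2). CMA1 was 0.98 higher in males (SE 0.42, adjusted p 0.49), and 0.17 (SE 0.38) without the 7 libraries. No member was called with RNA integrity either, a comparison in which edgeR called 0 of 16761 genes, although 2306 (13.8%) had an unadjusted p under 0.05. The slopes with the lowest p were those of ENPEP, -0.19 per unit of RNA integrity number (SE 0.09, unadjusted p 0.045), and NR3C2, 0.15 (SE 0.07, unadjusted p 0.050).

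ENPEP, glutamyl aminopeptidase, which removes the first residue of angiotensin II, was the only member called between extractions. It ranged from 1.5998 CPM (4x523) over 3.28 CPM to 9.19 CPM (95A014) in the earlier extraction and from 1.65 CPM (295) over 6.21 CPM to 22.6 CPM (529) in the later one. The extractions overlapped, but 16 of 21 later hearts exceeded the earlier median and 6 (529, 495, 4X0354, 676, 4X0333 and 389) exceeded every earlier heart. The medians of the earlier and the later extraction were 3.27 and 6.75 CPM in females and 3.69 and 3.87 CPM in males, and whether the sexes differ in this was not tested. In edgeR's quasi-likelihood test with sex as covariate, ENPEP rose by 0.77 (log2, SE 0.28, adjusted p 0.0493). At this threshold 16.5% of the 16000 genes were called, 12.2% higher and 4.29% lower in the later extraction, so 1 member of 7 is no more than the background. The size was 0.63 (adjusted p 0.16) without the 7 libraries with high mitochondrial shares, 0.64 (adjusted p 0.17) without the 8 animals noted for a virus and 0.62 (adjusted p 0.42) in Yerkes animals alone. Leaving out single animals moved it between 0.62 (without 529) and 0.86, with adjusted p above 0.05 in 25 of 38 cases.

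Over animals, ENPEP passed in none of its 21 relations with other members and marker lists, the highest r being 0.32 with pericyte markers (adjusted p 0.17 by permutation). The genes most like it were VMA21 (rho 0.57), PBDC1 (0.55), DCUN1D4 (0.55), PDE1B, a phosphodiesterase of cyclic nucleotides (0.54), and EDNRB, an endothelin receptor (0.54), and none of 12605 genes exceeded 0.7. Without the 7 libraries none of these 5 was among the first 5, and 1 gene exceeded 0.7.

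LNPEP, the insulin-regulated aminopeptidase that binds angiotensin IV, and NR3C2, the mineralocorticoid receptor, formed a pair. LNPEP ranged from 12.5 CPM (549) over 17.5 CPM to 23.2 CPM (4x0519) in the earlier extraction, and from 4.64 CPM (537) over 15.6 CPM to 22.6 CPM (724) in the later one. NR3C2 ranged from 4.42 CPM (MD_And) over 8.38 CPM to 13.7 CPM (4x0519) and from 1.54 CPM (4X0339) over 6.28 CPM to 12.9 CPM (4X0095). The low values were those of particular libraries. For NR3C2, 7 later hearts lay below every earlier heart, and they were the 7 with the highest mitochondrial shares (1.54 to 4.03 CPM, against 5.11 to 12.9 CPM in the other 14). For LNPEP, 9 later hearts lay below every earlier heart, and all 7 were among them.

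Between extractions, NR3C2 differed by -0.56 (log2, SE 0.22, adjusted p 0.075 by edgeR) and LNPEP by -0.40 (SE 0.20, adjusted p 0.17), neither past the threshold. Without the 7 libraries these values were -0.15 (adjusted p 0.54) and -0.03 (adjusted p 0.94). Over 38 hearts the 2 genes had r = 0.84 and rho = 0.82, with p = 1e-05 and adjusted p 0.00063 for both by permutation. The relation was 0.85 without 537 and Little_R, 0.57 within the earlier and 0.88 within the later extraction, and 0.58 without the 7 libraries (adjusted p 0.016 by permutation). In the authors' normalized matrix r was 0.48 (adjusted p 0.066).

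**Figure D4:**
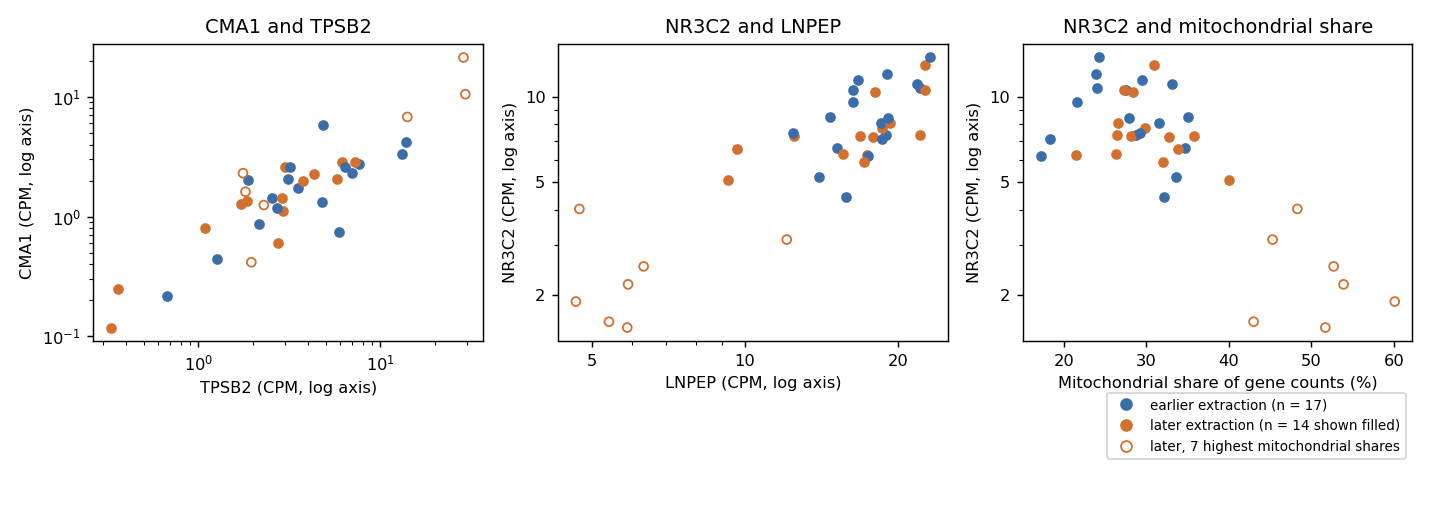
Each point is 1 heart, with levels in CPM on log axes. Left, CMA1 against the tryptase gene TPSB2. Middle, NR3C2 against LNPEP. Right, NR3C2 against the share of gene counts on mitochondrial genes, in percent. Open points are the 7 libraries with the highest shares, which form the lower group of NR3C2.

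Neither gene was alone in this. With the mitochondrial share, centred in the same way, r was -0.74 for NR3C2 and -0.83 for LNPEP, but within the earlier extraction, where shares were at most 34.98%, it was -0.21 and -0.37. The library size on the log2 scale moved with both genes as well, with r = 0.66 for NR3C2 and 0.76 for LNPEP over 38 hearts, 0.76 and 0.83 within the later extraction and 0.01 and -0.04 within the earlier one. The part of either in these levels was not tested. Of 12605 genes, 495 had a rho over 0.7 with NR3C2, led by DENND5B (0.90), ZYG11B (0.88), KIFBP (0.87), RNF180 (0.87) and MTMR6 (0.87). For LNPEP there were 522, led by MGAT5 (0.92), SCYL2 (0.92), ZNF770 (0.92), ZBTB38 (0.91) and CDC5L (0.91). Without the 7 libraries the numbers over 0.7 were 61 and 34. Of the 5 genes named for each, 0 for NR3C2 and 1 for LNPEP were then still among the first 5. Both genes ran against endothelial markers (r -0.55 for NR3C2, -0.64 for LNPEP, adjusted p at most 0.021 by permutation for r and rho) and pericyte markers (r -0.54 and -0.58), and LNPEP ran with cardiomyocyte markers (r 0.65, rho 0.53, adjusted p 0.0046 and 0.025 by permutation). Without the 2 farthest hearts, r was -0.51 and -0.48 with endothelial and -0.45 and -0.55 with pericyte markers, and 0.47 for LNPEP with cardiomyocyte markers. Within the earlier extraction, r with endothelial markers was -0.04 and -0.25, that with pericyte markers -0.54 and -0.47, and that of LNPEP with cardiomyocyte markers 0.01. None of the 5 passed without the 7 libraries. LNPEP also passed by r alone with ventricular (r 0.42, adjusted p 0.0021 by permutation), fibroblast (r -0.50, adjusted p 0.023) and smooth muscle markers (r -0.43, adjusted p 0.044). Adjusted p of rho lay between 0.094 and 0.19 for them, and r within the earlier extraction was 0.41, 0.07 and -0.56. NR3C2 passed by rho alone with the erythrocyte marker HBB (rho -0.42, adjusted p 0.046 by permutation).

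AGTR1, the type 1 receptor through which angiotensin II constricts vessels, had 8 to 175 counts per heart on the annotated gene (median 48.5). Its orthologous exons had a median of 133.5 counts, with the lowest level in 4X0357 and the highest in 537. The values that follow are those of the annotated gene. The level of AGTR1 ranged from 0.333 CPM in 4X0339 (8 counts, 95% exact Poisson interval 0.144 to 0.656 CPM) over 1.20 CPM to 5.05 CPM in 529. The extractions overlapped, with medians of 1.16 and 1.29 CPM. AGTR1 moved with smooth muscle markers (r 0.53, rho 0.50, adjusted p 0.0090 and 0.021 by permutation) and, among these, MYH11, the smooth muscle myosin, had r = 0.54. SMTN, the most abundant of them, had r = 0.09 and CNN1 had 0.22. The relation with the list was 0.48 without the 2 farthest hearts, 0.74 within the later extraction and 0.13 within the earlier one, and 0.30 (adjusted p 0.51) without the 7 libraries. AGTR1 also moved with AGT (r 0.54, rho 0.49, adjusted p 0.0083 and 0.021), with CMA1 (r 0.59, rho 0.49, adjusted p 0.0046 and 0.021) and with nerve and Schwann cell markers (r 0.56, rho 0.47, adjusted p 0.0047 and 0.025, all by permutation). Without the 2 farthest hearts these were 0.59, 0.42 and 0.44. Within the earlier and the later extraction they were 0.42 and 0.59 for AGT, 0.32 and 0.70 for CMA1, and 0.48 and 0.61 for the nerve markers. None of the 3 passed without the 7 libraries. By r alone, AGTR1 also ran with fibroblast (r 0.52, adjusted p 0.011 by permutation) and mast cell markers (r 0.50, adjusted p 0.011) and against cardiomyocyte (r -0.45, adjusted p 0.034) and ventricular markers (r -0.44, adjusted p 0.011), with adjusted p of rho between 0.089 and 0.21. Within the earlier extraction these r were 0.13, 0.20, -0.31 and -0.50. The genes most like AGTR1 were CNN2 (rho 0.74), GPC3 (0.72), TMBIM6 (0.71), ALDH1A1 (0.70) and SRSF8 (0.69), of which none was among the first 5 without the 7 libraries.

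AGT moved with pericyte markers (r 0.68, rho 0.52, adjusted p 0.0013 and 0.019 by permutation), among which NDUFA4L2 (r 0.66), NOTCH3 (0.61) and PDGFRB (0.60) were highest. KCNJ8 (r 0.09) and CSPG4 (0.27) were lowest. The relation with the list was 0.55 without the 2 farthest hearts, 0.25 within the earlier and 0.75 within the later extraction, and 0.29 without the 7 libraries (adjusted p 0.84). By r alone, AGT also ran with endothelial markers (r 0.62, adjusted p 0.0047 by permutation) and against cardiomyocyte markers (r -0.62, adjusted p 0.0058), but rho did not pass (0.41 and -0.41, adjusted p 0.077 and 0.089). Without Little_R and 537, the 2 farthest hearts, these r were 0.49 and -0.50, and within the earlier extraction 0.17 and 0.02. Relations by r alone were also found with macrophage (r 0.47, adjusted p 0.011 for r and 0.078 for rho, 0.37 within the earlier and 0.57 within the later extraction), smooth muscle (r 0.45, adjusted p 0.028 and 0.15) and ventricular cardiomyocyte markers (r -0.41, adjusted p 0.011 and 0.53, all by permutation). Within the earlier and the later extraction, r was 0.28 and 0.53 with smooth muscle and -0.24 and -0.67 with ventricular markers. By rho, the ventricular relation was 0.31 in the earlier extraction, of the opposite sign. AGT is best known as a liver product. With hepatocyte markers r was -0.01, a mean that rests on 2 genes, APOA1 (15.3 to 551 CPM, median 94.1, r -0.27) and SERPINA1 (median 3.44 CPM, r 0.19). ALB, albumin, which is not in that mean, had a median of 0.170 CPM with a highest value of 30.4 CPM. The genes most like AGT were NUCB1 (rho 0.70), CRELD1 (0.69), LRRC61 (0.68), PRKCSH (0.68) and TMEM94 (0.68). None of these 5 remained among the first 5 without the 7 libraries.

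**Figure D5:**
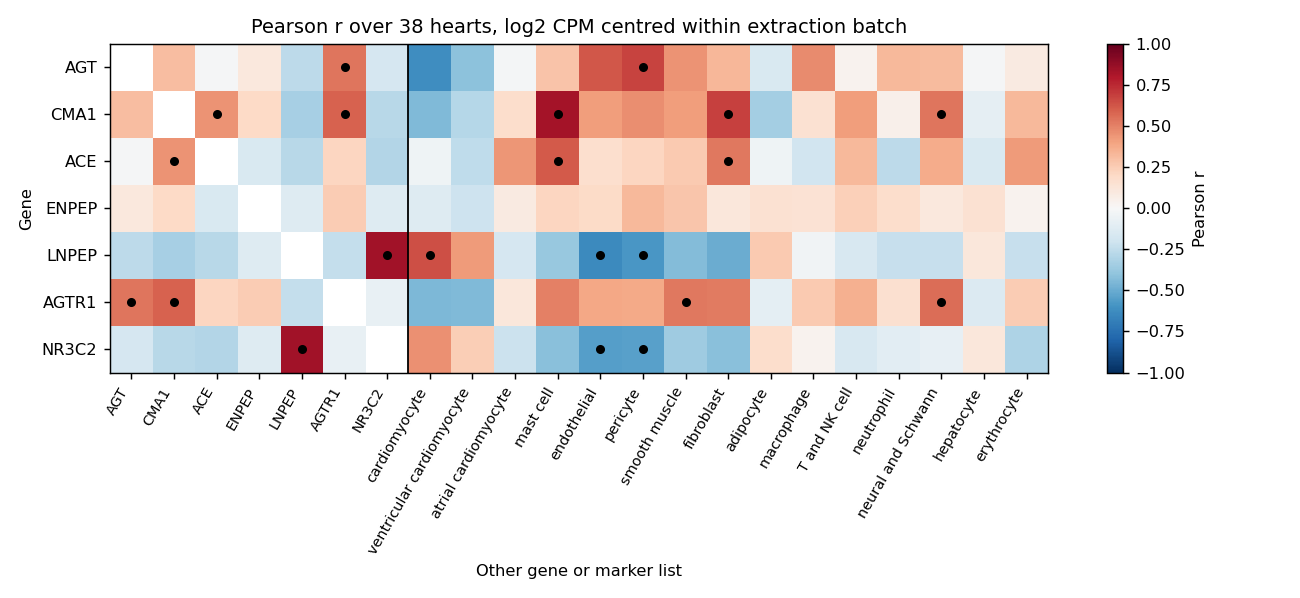
Colours give Pearson's r over 38 hearts between each of the 7 genes (rows) and the other genes and 15 marker lists (columns), from log2 CPM centred within extraction batch. Dots mark the relations whose r and rho both passed 0.05 after adjustment over 126 relations. ENPEP has no dot. LNPEP and NR3C2 both have dots with each other and with endothelial and pericyte markers, and LNPEP alone has one with cardiomyocyte markers.

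In all, 17 of 126 relations passed by both r and rho, 13 positive and 4 negative, whereas 34 passed by r and 18 by rho. Those that passed in the 31 hearts without the 7 libraries as well were CMA1 with mast cell and fibroblast markers, ACE with the same lists, and NR3C2 with LNPEP. Without the 8 animals noted for a virus these 5 passed as well, and 7 of the 17 did not.

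The other genes of the pathway were taken from 5 lists holding 57 genes, of which 43 could be tested between extractions. Of these, 2 were higher and 2 lower in the later extraction (9.30%, against 16.5% of all genes). Markers of other cells moved with the extraction too. Over all genes, 4.29% were called lower and 12.2% higher in the later extraction. Of the macrophage markers 7 of 8 tested were lower (median log2 difference -1.28), and of the atrial markers 4 of 9 (median -1.54). Of the adipocyte markers 3 of 8 were higher (median 0.56). The part of these markers in the differences of ENPEP and of the genes below was not tested. On the list of angiotensin formation and breakdown, 2 of 12 tested were called lower, where 4.29% of all genes were. They were NLN, neurolysin, by 0.62 on the log2 scale (SE 0.21, adjusted p 0.034 by edgeR), and CTSA, cathepsin A, by 0.30 (SE 0.11, adjusted p 0.047). The median log2 difference of this list was -0.14, against 0.02 over all genes. MME, neprilysin, ranged from 0.992 to 51.1 CPM, with a median of 8.99 CPM.

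None of the 11 genes tested among angiotensin receptors and their partners was called. Of the alternative receptors, AGTR2 had no count in 27 hearts and at most 0.169 CPM, MAS1 had none in 33 hearts and at most 0.0847 CPM, and MRGPRD had none in 26 hearts and at most 0.278 CPM. A count of 0 allows a level of up to 0.0368 to 0.208 CPM (3 counts), depending on the depth of the library. AGTRAP, which binds the type 1 receptor, ranged from 9.52 to 53.4 CPM with a median of 17.9 CPM.

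The genes of aldosterone synthesis that were found were low. CYP11B1, the last step of cortisol synthesis, had no count in 33 hearts, and CYP11A1, the first step of steroid synthesis, had a median of 0.267 CPM and reached 2.63 CPM in 295. CYP11A1 was the 1 gene called of 6 tested on this list, rising by 1.18 (log2, SE 0.40, adjusted p 0.039), where 12.2% of all genes were called higher. CYP11B2 and CYP21A2 were not found by symbol. HSD11B2, which protects the mineralocorticoid receptor from cortisol, had a median of 0.611 CPM, whereas NR3C1, the glucocorticoid receptor, was present in every heart at 41.97 to 144 CPM (median 65.1). HSD11B1, which regenerates cortisol, had a median of 1.89 CPM.

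Of 11 tested target genes of the corticosteroid receptors, none was called. SGK1, a kinase that aldosterone induces in kidney epithelium, ranged from 11.8 to 152 CPM (median 42.8) with the highest dispersion of its list, 1.30. Of the target genes in the dispersion filter, 7 of 9 were above 0 (median 0.96), against 44.4% of all genes (median -0.13). The same counts were 3 of 12 for angiotensin formation and breakdown (median -0.29), 6 of 11 for the receptors and their partners (0.31), 1 of 3 for aldosterone synthesis (-0.14) and 2 of 2 for the kinin system (0.95). The subunits of the epithelial sodium channel were low, with medians of 1.68 CPM (SCNN1A), 0.810 CPM (SCNN1B) and 0 CPM (SCNN1G, no count in 20 hearts). In the kinin system, whose peptides ACE also degrades, 1 of 3 genes was called, KLKB1, plasma prekallikrein, with a rise of 1.78 (log2, SE 0.40, adjusted p 0.0018) from a low level (median 0.214 CPM), also against 12.2% of all genes called higher, so single genes on such short lists do not set them apart. BDKRB2, the constitutive bradykinin receptor, ranged from 0.842 CPM to 24.9 CPM (median 4.34). No gene of the 5 lists was called between the sexes (43 tested) or with RNA integrity (44 tested).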

How the data were processed

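The labels give 1 group of 38 chimpanzee hearts. Extraction batch, sex, RNA integrity number and notes on viruses came from the study's sample table. The 7 genes, the gene lists and the marker lists were chosen with earlier results of these data known. The authors aligned reads with STAR (2.6.1b) to Pan_tro_3.0 and deposited a count per annotated gene, unnormalized, and a count per gene on orthologous exons from featureCounts (1.6.3), with exon length. They also deposited a normalized score per gene (13545 genes, 37 animals), made from log CPM standardized per gene and quantile normalized per animal. The library kit does not mark strand, so antisense reads cannot be told apart. Columns of other samples (52) were not used.

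Counts were divided by the orthologous exon total. A gene was assigned the orthologous exons whose counts followed it best, if they led the second-best exons by at least 0.1 in r. Of 1995 known pairs, 1180 passed this margin, and the assignment was right for 1178 of these. The tests were edgeR 4.0.16 (TMM, filterByExpr, quasi-likelihood, batch and sex in the model), with DESeq2 1.42.0 as an alternative, and Benjamini-Hochberg adjustment with a threshold of 0.05. The SE of an edgeR difference or slope is its absolute log2 value divided by the square root of its F statistic. Overdispersion was fitted by maximum likelihood over genes with 6 CPM in at least 1 animal, with a LOESS trend (degree 1, span 0.75) and an SE from 1000 draws of the animals with replacement. Correlations used log2(CPM + 0.5) centred within batch and 100000 permutations of animals within batch. A marker list is the mean of its markers with a median of at least 1 CPM. The genes named are the 7 members, genes of the lists, and for each member the 5 genes with the highest rho among genes with a symbol and a median of at least 1 CPM. Some genes of the pathway lists enter the counts of those lists and are not reported singly here. Steps were tested on simulated data: 139 of 200 genes changed 2-fold and 7 unchanged genes were called between extractions, estimated and true overdispersion had r = 0.980 over 13121 genes, and 1 planted relation but none of 125 others passed. Intervals and limits of detection cover counting error only. P-values were computed with animals as independent units, although some are relatives, and relatedness was in no model. Alternatives were other normalizations, filters, covariates, count tables and sets of animals. Tools were R 4.3.3, Python 3.11.15, statsmodels 0.14.6 and pandas 2.3.3.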

Additional observations from a re-analysis of the deposited data

How the results depend on the processing

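ENPEP passed between extractions under 4 of 12 alternatives and in 13 of 38 repeats without 1 animal, and rose in all of them (0.62 to 0.86 on the log2 scale). No other member passed under the 12 alternatives, and without 4X0095 or 4X0550 NR3C2 did (adjusted p at least 0.046 by edgeR). The share of tested genes called between extractions was 1.64% in Yerkes animals alone, 6.91% without the 7 libraries with the highest mitochondrial shares and 2.84% with that share as a covariate, against 16.5%. Without single animals it was 13.8% to 19.2%. Between the sexes DESeq2 called 0.637% of genes (102) against 0.231% (37), and without TMM factors 0.0119% of genes (2) followed RNA integrity, against 0.

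Members near 0 changed sign, always without passing the test. Between extractions AGT (0.0061) was -0.029 with the annotated gene total, -0.054 without a filter, -0.014 without sex, -0.080 without 537 and Little_R, -0.18 both without the 7 libraries (-0.178) and with the mitochondrial share (-0.1785), and -0.0084 with DESeq2. In Yerkes animals, without the 7 libraries and with the mitochondrial share, AGTR1 (0.17) was -0.17, -0.099 and -0.14, and CMA1 (0.23) was -0.032, -0.36 and -0.35. Without single animals AGT lay between -0.086 and 0.039, ACE between -0.39 and 0.036 and CMA1 between -0.0066 and 0.42. Between the sexes AGT (-0.0083) was 0.055 without TMM factors, 0.0011 with RNA integrity, 0.011 without 537 and Little_R, 0.025 on orthologous exons and 0.024 without the 8 animals noted for a virus. The RNA integrity slope of AGT was -0.022 without 537 and Little_R and -0.057 without the 7 libraries, where that of AGTR1 was -0.044. Without the 8 animals these slopes were -0.023 for AGT, 0.089 for ACE and -0.048 for LNPEP.

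All 6 members in the dispersion filter were above the trend, and 5 or 6 without single animals. CMA1 left the filter in the earlier extraction alone and without the 7 libraries, where 2 of 5 were above it. Of 126 relations, 17 passed over all animals, 0 in the earlier extraction alone, 3 in the later one, 6 without 537 and Little_R, 5 without the 7 libraries and 1 (CMA1 with mast cell markers) in the authors' normalized matrix. The r of all 17 kept its sign under every alternative, but the rho of LNPEP with cardiomyocyte markers was -0.03 in the earlier extraction alone (r 0.0078). The causes were not tested. CMA1 with mast cell markers passed under 9 of 10 alternatives, and with 17 animals it had an adjusted p of 0.35 by permutation. The results without the 7 libraries, without the 8 animals, without 549, and with the mitochondrial share, and some with other tables or without TMM factors, were added after seeing the data. Levels per length had no filter, so the setting without one equals them. No paired analysis was possible because the labels give 1 group. Low counts on the annotated genes limit CMA1 and AGTR1, which had as few as 5 and 8 counts in a heart. For AGTR1 the orthologous exons gathered 2.55 times as many counts, and its relations were not computed on them.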
